A study of Mus musculus with 9 samples.

Results

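The endothelium of brain vessels was examined in the mouse hippocampus through 10 genes chosen by symbol: Cldn5, Ocln, Tjp1, Slc2a1, Mfsd2a, Slco1a4, Abcb1a, Pecam1, Flt1 and Nos3. Each symbol occurred in both deposited tables, so the set held 10 of the 54532 genes listed. A high-methionine diet left none of them past the test against the standard diet, although Slc2a1 lay higher in every diet sample than in any control. After betaine, Slc2a1, Mfsd2a, Cldn5 and Ocln were lower than on the diet alone, with means 1.79-fold, 1.61-fold, 1.41-fold and 1.33-fold lower, while Tjp1 and Nos3 were 1.23-fold and 1.72-fold higher. Against the standard diet, Cldn5 was 1.96-fold and Ocln 1.57-fold lower in the betaine samples. Each comparison shares samples with the others, the HMD samples among them, so they are not independent. Against HMD, Slc2a1 and Mfsd2a were called in all 16 alternative fits. Tjp1 was called in 12 of 16, Cldn5 in 10 of 16, Nos3 in 9 of 15 and Ocln in only 3 of 15. A large share of all genes also passed the test after betaine, so these calls alone do not set the 10 genes apart.

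Endothelial cells of the brain form the blood–brain barrier. Tight junctions seal the gaps between neighbouring cells, transporters in their membranes carry nutrients in and drugs out, and vesicle traffic across the cells is held low. Pericytes and astrocyte endfeet surround the vessels and help to maintain these properties. Several of the 10 genes are also used by other cells, Slc2a1 by glia and Tjp1 by many cell types that form junctions, so a level in tissue is not a level in endothelium alone.

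Total RNA from the hippocampus was sequenced in 9 samples, 3 per group. Con mice ate a standard diet, and HMD mice ate a diet rich in methionine, a precursor of homocysteine, over 8 weeks. Bet+HMD mice ate the methionine diet for 8 weeks and then drank water with 2.5% (w/v) betaine, a donor of methyl groups, for 2 weeks. The mice were C57BL/6 animals aged 6 to 8 weeks at purchase and were kept 2 per cage. No transgene or deletion was named for any group, and Con is labelled WT. The labels call the mice male, whereas the methods of the study name female mice. Those methods also give an age of 8 weeks and another number of mice per cage. The strain fields of the betaine samples read C57BL/6, C57BL/7 and C57BL/8. Whether the methionine diet went on during betaine is not clear from the sources used here. Nothing in the labels says that the samples of a group were separate animals, so p-values measure the spread between these samples. The comparisons ask whether the diet altered expression and whether betaine altered it further.

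Con and HMD were compared in the earlier of the 2 tables, and both comparisons with Bet+HMD were made in the later one, where the Con and HMD samples recur. Libraries of the earlier table held 16449388 to 18566712 reads assigned to genes, and those of the later table held 16031464 to 18291952. The 10 genes were backed by 58 to 3523 reads per library, with Nos3 the least covered. Expression is given as FPKM, the number of fragments relative to the length of the gene and the size of the library, which allows levels of different genes to be compared per length. A difference is given on the log2(FPKM + 1) scale with its standard error (SE). A gene was called where limma's p, adjusted over all genes tested by the Benjamini-Hochberg method, was under 0.05. All 10 genes passed the minimum mean level of 1 FPKM in every comparison. The Bet+HMD libraries stood apart: 25315 to 25663 genes had a read, against 20816 to 23272 in the other 6 libraries of that table, and their FPKM values summed to 249135 to 258514, against 288439 to 307899. Labels do not say that the 3 groups were prepared together, so betaine and a difference in library preparation cannot be told apart. Betaine followed the 8 weeks of diet. A possible end of that diet and the 2 further weeks thus cannot be separated from betaine. In whole tissue, fewer cells of a type and less RNA per cell cannot be told apart either.

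The promoters of Slc2a1, Mfsd2a and Cldn5 are shown because these genes had the largest differences among the 10. Each sequence is the 250 bases before the RefSeq gene start on GRCm38.p6, printed 5′ to 3′ on the strand of the gene. They lie at chr4:119108495-119108744 on the plus strand, chr4:122961189-122961438 on the minus strand and chr16:18776597-18776846 on the plus strand, in that order. For Slc2a1 the last bases of the window lie inside the gene as GENCODE places it. Capitals mark matches on either strand to ACGTG, a form of the hypoxia response element core, to GGGCGG, the GC box, and to CCAAT. Other forms of that core were not searched or marked.
Slc2a1: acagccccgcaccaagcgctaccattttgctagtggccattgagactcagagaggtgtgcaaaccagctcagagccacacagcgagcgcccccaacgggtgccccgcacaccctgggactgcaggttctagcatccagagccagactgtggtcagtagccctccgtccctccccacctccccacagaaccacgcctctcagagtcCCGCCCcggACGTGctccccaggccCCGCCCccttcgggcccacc
Mfsd2a: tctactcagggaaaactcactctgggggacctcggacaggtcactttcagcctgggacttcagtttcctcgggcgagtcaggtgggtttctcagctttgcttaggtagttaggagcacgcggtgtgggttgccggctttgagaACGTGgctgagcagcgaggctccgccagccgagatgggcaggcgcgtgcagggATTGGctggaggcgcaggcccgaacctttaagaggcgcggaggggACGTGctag
Cldn5: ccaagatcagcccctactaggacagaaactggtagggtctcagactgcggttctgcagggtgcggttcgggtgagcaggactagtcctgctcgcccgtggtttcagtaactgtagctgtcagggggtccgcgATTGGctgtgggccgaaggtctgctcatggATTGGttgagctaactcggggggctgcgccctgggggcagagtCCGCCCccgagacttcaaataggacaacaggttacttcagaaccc
The Slc2a1 window held 1 match to ACGTG and 2 GC boxes. The Mfsd2a window held 2 matches to ACGTG and 1 to CCAAT, and the Cldn5 window held 1 GC box and 2 matches to CCAAT. No marked match overlapped another, though ACGTG is also part of the longer E-box CACGTG. A RefSeq promoter was found for 8 of the 10 genes, and Pecam1 and Nos3 had no entry. Of these 8 genes, 2 held ACGTG (Slc2a1 and Mfsd2a), 5 held a GC box and 4 held CCAAT. Among all 32851 RefSeq promoter windows of this length, 16.6% held ACGTG, 32.7% a GC box and 33.9% CCAAT. These shares are per window, whereas a gene counted if any of its windows matched. Ocln has 2 windows, and its CCAAT lies in only 1 of them. The motifs were chosen after the sequences were seen, and a match describes letters, not a bound site.

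In Con hippocampus, levels per length ran from Slc2a1 at the top to Nos3 at the bottom. In the later table the Con means were 34.7 FPKM for Slc2a1, 19.0 for Cldn5, 16.5 for Tjp1, 13.2 for Slco1a4, 11.8 for Mfsd2a, 8.42 for Abcb1a, 6.84 for Flt1, 5.67 for Ocln, 4.17 for Pecam1 and 1.55 for Nos3. Neighbours in this order overlapped between Cldn5 and Tjp1, between Tjp1 and Slco1a4, and between Slco1a4 and Mfsd2a. All other neighbours were separated in every Con sample. In the betaine samples Tjp1, at 19.6 FPKM, stood above Cldn5, at 9.69 FPKM.

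**Figure D1:**
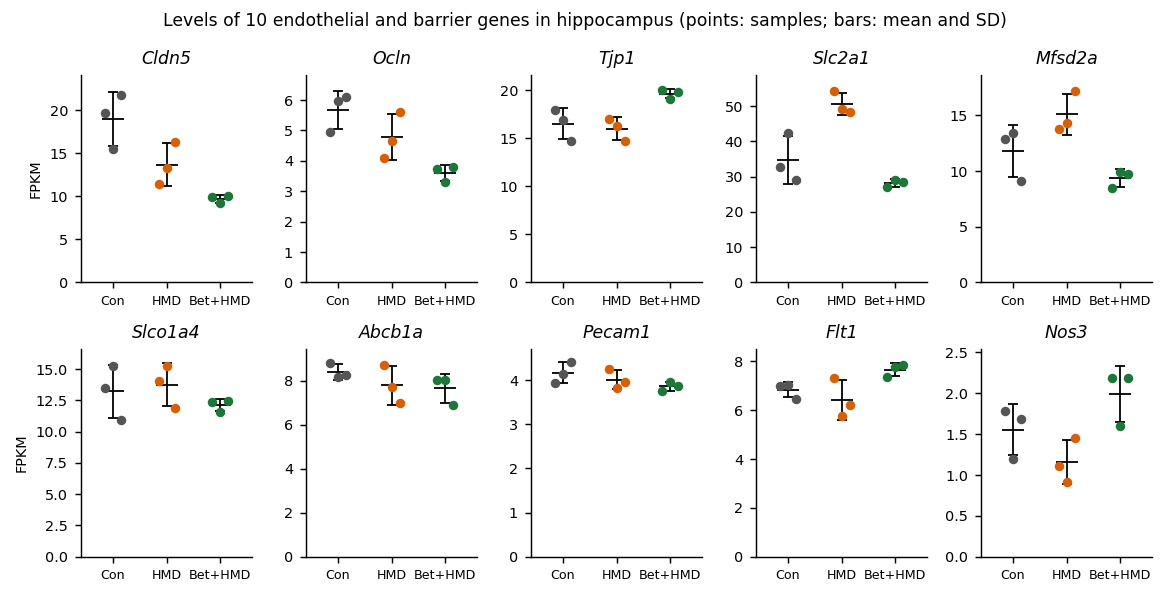
FPKM of the 10 genes in the later table, by group (Con, HMD, Bet+HMD). Points are the 3 samples of a group and bars give the mean and SD, each panel has its own axis from 0, and Slc2a1 shows 3 HMD samples between 48.4 and 54.3 FPKM, above every other sample.

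The diet was compared with the standard diet to ask what excess methionine did to these genes. None of the 10 was called, and none of the 12989 genes tested was called either (0% of all genes). The limma voom fit on recovered reads also called none of the 10. At an unadjusted p under 0.05, 2 of the 10 passed, Slc2a1 and Cldn5, where 4.56% of all genes did. For 2 of the 10, Slc2a1 and Mfsd2a, the HMD and Con samples were separate, as they were for 9.37% of all genes. The median difference of the 10 genes was -0.06, and that of all genes was -0.004.

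Among the transporters, Slc2a1 encodes the glucose transporter of the barrier (ENSMUSG00000028645, chr4:119108711-119137983, plus strand). Its level was 32.2, 41.7 and 28.4 FPKM in Con replicates 1 to 3 and 54.1, 48.0 and 47.8 FPKM in HMD replicates 1 to 3. Every HMD sample lay above every Con sample, and Con replicate 2 came closest. The difference was 0.55 (SE 0.15, adjusted p = 0.906), a ratio of group means of 1.46. Mfsd2a carries lysophospholipids with docosahexaenoic acid into the brain and restrains vesicle traffic in endothelium (ENSMUSG00000028655, chr4:122946850-122961188, minus strand). It stood at 12.6, 13.0 and 8.88 FPKM in Con and at 13.4, 14.2 and 17.0 FPKM in HMD. Those groups were separate by a narrow gap, and the difference was 0.35 (SE 0.16, adjusted p = 0.980). Slco1a4, a carrier of organic anions and thyroid hormone (ENSMUSG00000030237, chr6:141805440-141856199, minus strand), differed by 0.05 (SE 0.15), and its groups overlapped throughout. The value was -0.066 without Con replicate 3 and -0.013 without HMD replicate 2. Abcb1a, the P-glycoprotein drug pump (ENSMUSG00000040584, chr5:8660077-8748575, plus strand), differed by -0.09 (SE 0.11) with overlapping groups. Reads of Abcb1a and Slco1a4 may be shared with close relatives of these genes, so their levels are uncertain. Parts of Abcb1a, Slc2a1 and Tjp1 are also overlapped by predicted genes on either strand.

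Of the junction genes, Cldn5 encodes the claudin that seals the barrier against small molecules (ENSMUSG00000041378, chr16:18776847-18778262, plus strand). The Con samples held 19.2, 15.4 and 21.1 FPKM, and the HMD samples held 11.2, 12.7 and 16.2 FPKM. HMD was lower on average, but HMD replicate 3 lay above Con replicate 2. The difference was -0.45 (SE 0.17, unadjusted p = 0.030, adjusted p = 0.980). Ocln, for the junction protein occludin (ENSMUSG00000021638, chr13:100496507-100552718, minus strand), averaged 5.56 ± 0.60 FPKM in Con and 4.68 ± 0.78 FPKM in HMD (SD, n = 3), a difference of -0.21 by limma. Tjp1, a scaffold that links junction proteins to actin (ENSMUSG00000030516, chr7:65296165-65527781, minus strand), averaged 16.2 ± 1.65 and 15.7 ± 1.18 FPKM. The groups overlapped for Ocln and for Tjp1. Without Con replicate 1 or HMD replicate 3 the sign of Tjp1 turned, to 0.017 and 0.016.

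The remaining genes mark endothelial identity and signalling. Pecam1, an adhesion molecule at endothelial contacts (ENSMUSG00000020717, chr11:106654217-106750628, minus strand), averaged 4.07 ± 0.22 FPKM in Con and 4.02 ± 0.34 FPKM in HMD. The difference was -0.01 with a 95% interval from -0.26 to 0.23, and its sign changed with TPM scaling (0.0015) and without single samples. Flt1, a receptor for vascular endothelial growth factor (ENSMUSG00000029648, chr5:147561604-147726011, minus strand), averaged 6.70 ± 0.33 and 6.32 ± 0.81 FPKM. Nos3, the endothelial nitric oxide synthase (ENSMUSG00000028978, chr5:24364810-24384474, plus strand), averaged 1.51 ± 0.30 FPKM in Con and 1.12 ± 0.29 FPKM in HMD, from 58 to 133 reads per library. These 3 genes overlapped between the groups.

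Slc2a1 and Cldn5 lay on opposite sides of their Con means. Relative to Pecam1 in the same sample, Slc2a1 was 8.37, 10.3 and 6.61 times as high in Con and 12.3, 12.8 and 12.2 times in HMD. Cldn5 was 4.99, 3.80 and 4.92 times the level of Pecam1 in Con and 2.55, 3.38 and 4.14 times in HMD. The first ratio was separate between the groups and the second overlapped. These ratios were chosen after the values were seen and were not tested. Con replicate 2 held both the highest Slc2a1 and the lowest Cldn5 of its group.

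Markers of other cell types were summed to set beside these values. Summed over 6 thalamus markers, the level was 32.3 to 43.9 FPKM in Con and 51.0 to 115 FPKM in HMD. Of these 6 genes, 4 were separate between the groups, against 9.37% of all genes. Over 5 markers of blood cells the summed level was 98.0 to 147.5 FPKM in Con and 146.8 to 230 FPKM in HMD, a slight overlap. The 13 pericyte and smooth muscle markers summed to 77.0 to 83.5 FPKM in Con and 74.9 to 83.7 FPKM in HMD. Microglia markers, 7 in number, summed to 100.4 to 123 FPKM in Con and 84.0 to 98.5 FPKM in HMD. The 7 hippocampus markers summed to 209.5 to 229 FPKM in Con and 174 to 209.7 FPKM in HMD. Of these 7, 4 had an unadjusted p under 0.05 (4.56% of all genes). The groups were separate for 3 of the 7 (9.37% of all genes), and 3 of the 7 had positive differences. Astrocyte markers summed to 542 to 693 FPKM in Con and 576 to 696 FPKM in HMD, and neuron markers to 850 to 987 and 906 to 1044 FPKM. Sums of oligodendrocyte, choroid plexus, and fibroblast and meninges markers overlapped between the groups too. No listed marker was at 0 throughout a group, and none was called. The summed levels of thalamus and blood markers were higher and those of microglia and hippocampus markers lower in HMD on average, and their part in the values of the 10 genes was not tested.

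Of 103 other genes of the barrier and its vessels, in 8 lists, 84 were tested and 0 were called between HMD and Con by limma. At an unadjusted p under 0.05 there were 7 of the 84, where 4.56% of all genes passed. Groups were separate for 8 of the 84, against 9.37% of all genes. The lowest p of each list belonged to Lsr, a receptor at tricellular junctions (-0.43), Slc19a3, a thiamine carrier (0.35), Cavin2, a caveolar coat protein (0.28), Ets1, a transcription factor of endothelium (-0.37), Nrp1, a coreceptor of VEGF (-0.18), Apcdd1, a Wnt inhibitor (-0.34), Gucy1a1, a subunit of soluble guanylate cyclase (0.34), and Vcam1, an adhesion molecule (-0.13). The voom fit called 0 of these genes as well.

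**Figure D2:**
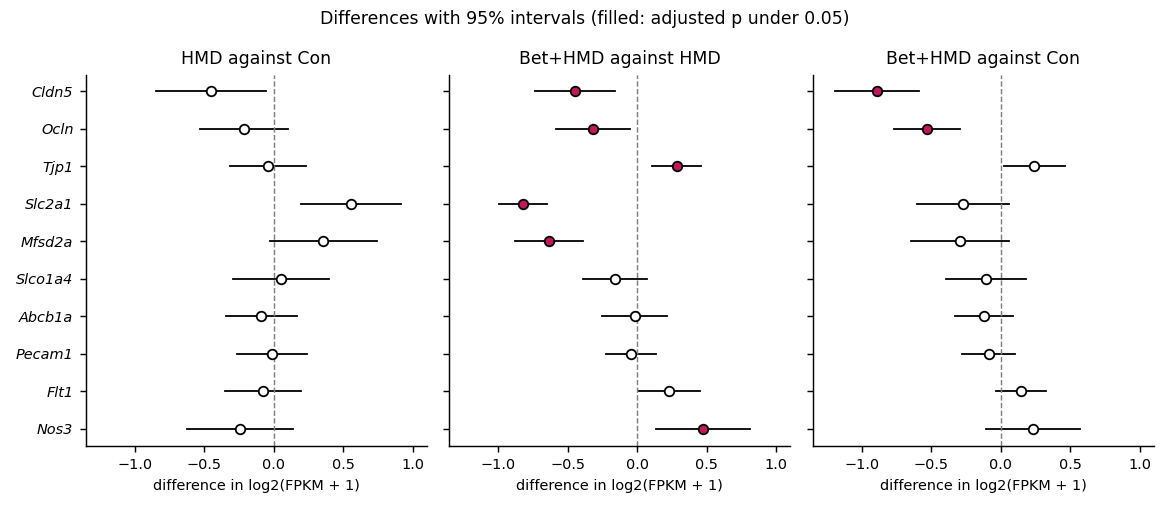
Differences in log2(FPKM + 1) of the 10 genes in the 3 comparisons, with 95% intervals of limma. Filled points have an adjusted p under 0.05, which 0 genes reached for HMD against Con, 6 for Bet+HMD against HMD and 2 for Bet+HMD against Con.

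Betaine was compared with the diet alone to ask what differed after betaine in mice that had eaten the methionine diet. The transporters Slc2a1 and Mfsd2a and the junction genes Cldn5 and Ocln were lower, and Tjp1 and Nos3 were higher. Thus 6 of the 10 genes were called, where 48.3% of all 13672 genes tested were called, a share near that background. Higher were 2 of the 10 (22.8% of all genes) and lower were 4 of the 10 (25.5% of all genes). Betaine and HMD samples were separate for 7 of the 10 genes, against 60.1% of all genes. The median difference was -0.10 over the 10 genes and -0.03 over all genes. Without Bet+HMD replicate 1 or 3, 2 of the 10 were called, and without Bet+HMD replicate 2, 3 were. In the fits without Bet+HMD replicates 1, 2 and 3, the calls over all genes numbered 4847, 4782 and 4858, against 6607 with all samples. Slc2a1 and Mfsd2a were the genes called in each of these fits.

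For Slc2a1, Bet+HMD replicates 1 to 3 held 27.1, 29.2 and 28.5 FPKM, and HMD replicates held 54.3, 49.3 and 48.4 FPKM in the same table. All betaine samples were far below all HMD samples. The difference was -0.82 (SE 0.07, adjusted p = 0.00022), with means 1.79-fold lower after betaine. Mfsd2a stood at 8.44, 9.90 and 9.73 FPKM after betaine and at 13.8, 14.3 and 17.2 FPKM on the diet alone. Again the groups were separate, with a difference of -0.63 (SE 0.10, adjusted p = 0.0025) and means 1.61-fold lower. Slco1a4 averaged 12.1 ± 0.46 FPKM after betaine and 13.7 ± 1.72 FPKM in HMD, and Abcb1a averaged 7.67 ± 0.66 and 7.80 ± 0.88 FPKM. Both genes overlapped between the groups, with differences of -0.16 and -0.020 that turned to 0.025 and 0.17 with TPM scaling. Without HMD replicate 3, Slco1a4 was called at -0.26 (adjusted p = 0.031).

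Cldn5 was 9.88, 9.18 and 10.02 FPKM after betaine and 11.5, 13.3 and 16.3 FPKM in HMD. The betaine samples were all lower, and the difference was -0.45 (SE 0.12, adjusted p = 0.021). It was called in 10 of 16 alternative fits and in none that left out a betaine sample (adjusted p = 0.052 to 0.074). Ocln was 3.74, 3.31 and 3.80 FPKM after betaine and 4.10, 4.65 and 5.61 FPKM in HMD. Its difference of -0.32 (SE 0.11, adjusted p = 0.0497) lay at the threshold and was called in 3 of 15 alternative fits, of which 1 left out a sample (HMD replicate 1). Tjp1 was 20.02, 19.1 and 19.8 FPKM after betaine and 17.0, 16.3 and 14.7 FPKM in HMD. In contrast to Cldn5 and Ocln its betaine samples were all higher, with a difference of 0.28 (SE 0.08, adjusted p = 0.019). Tjp1 also missed the threshold without any one betaine sample (adjusted p = 0.055 to 0.077). In the fit with a replicate block, Tjp1 and Ocln missed the threshold (adjusted p = 0.0575 and 0.0681).

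Nos3 was 2.19, 1.60 and 2.18 FPKM after betaine and 1.11, 0.92 and 1.45 FPKM in HMD, from 58 to 157 reads. The groups were separate by a small gap, and the difference was 0.47 (SE 0.14, adjusted p = 0.031). It was called in 9 of 15 alternative fits, which ranged from 0.22 with quantile normalization (adjusted p = 0.237) to 0.87 with voom. Without HMD replicate 1 or 2 or Bet+HMD replicate 1 or 3 the call was lost (adjusted p = 0.065 to 0.106). Part of the Nos3 locus is overlapped by Atg9b on the opposite strand, and the counting is not stated to use strand, so this level is uncertain. Flt1 was 7.38, 7.77 and 7.85 FPKM after betaine and 7.33, 5.75 and 6.21 FPKM in HMD. Its groups were separate by a narrow gap, with HMD replicate 1 just below the lowest betaine sample, and the difference of 0.23 missed the threshold (adjusted p = 0.084). Without HMD replicate 1 it was 0.31 (adjusted p = 0.025). Pecam1 averaged 3.86 ± 0.10 FPKM after betaine and 4.02 ± 0.22 FPKM in HMD, a difference of -0.04 that became 0.14 with TPM scaling.

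The scale of the betaine libraries bears on these directions. TPM scaling moved the median of all genes from -0.03 to 0.16 in Bet+HMD against HMD and from -0.04 to 0.17 in Bet+HMD against Con. With it, 3 of the 10 genes were higher (Tjp1, Nos3 and Flt1) and 2 were lower (Slc2a1 and Mfsd2a) against HMD. The higher share of all calls went from 47.2% to 69.5%, and to 57.9% in the voom fit, which also called 3 of the 10 higher and 2 lower. Quantile normalization called 1 of the 10 higher and 4 lower. With TPM, Cldn5 was -0.28 (adjusted p = 0.120) and Ocln was -0.19 (adjusted p = 0.281), so both lost their call, while Slc2a1 was -0.64 and Mfsd2a was -0.48.

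Differences also moved with gene length. In HMD against Con the medians in 4 bins, from short to long genes, were -0.07, -0.02, 0.01 and 0.03. In Bet+HMD against HMD the median difference in 4 bins of gene length, from short to long, was -0.10, -0.11, -0.03 and 0.08. Cldn5 and Mfsd2a belonged to the shortest bin and Tjp1 and Flt1 to the longest. After centring on genes of like length and GC content, Cldn5 was -0.21 (adjusted p = 0.178), Ocln was -0.19 (adjusted p = 0.217), Slc2a1 was -0.78 and Mfsd2a was -0.49. Slc2a1, Mfsd2a, Tjp1 and Nos3 were called in that fit.

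Relative to Pecam1, Slc2a1 was 7.21, 7.37 and 7.36 times as high after betaine and 12.7, 12.9 and 12.2 times in HMD. Mfsd2a was 2.25, 2.50 and 2.51 times as high as Pecam1 after betaine and 3.24, 3.74 and 4.33 times in HMD. Both ratios were separate between the groups. Since each ratio is taken within a sample, a factor common to all genes of a library cancels. The trend with gene length need not cancel, as Slc2a1 has 3506 bases, Mfsd2a 2250 and Pecam1 6228. The ratios were not tested.

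**Figure D3:**
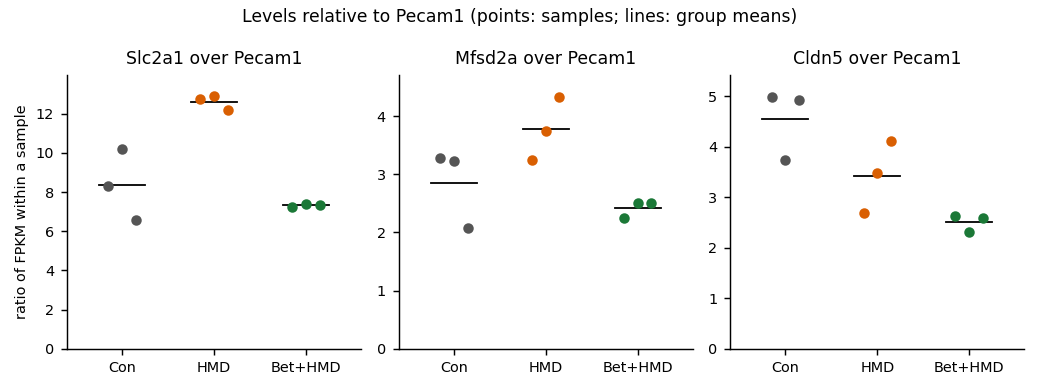
FPKM of Slc2a1, Mfsd2a and Cldn5 divided by that of Pecam1 in the same sample of the later table. Points are samples and lines are group means, and the Slc2a1 ratio lies between 12.2 and 12.9 in HMD and between 7.21 and 7.37 in Bet+HMD.

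Among the 103 other barrier genes, 83 were tested against HMD, 15 were higher and 21 were lower. The 36 calls were 43.4% of those tested, where 48.3% of all genes were called, 22.8% higher and 25.5% lower. TPM scaling called 25 higher and 10 lower, the voom fit 22 and 17, and quantile normalization 11 and 24. In the junction list 5 of 13 were higher and 2 lower. Lsr was higher by 0.66 (SE 0.12), and Ctnnb1, for beta-catenin of adherens junctions, was lower at -0.57 (SE 0.06). In the transporter list 3 of 15 were higher and 5 lower. Slc22a8, an exporter of organic anions, was higher by 0.73 (SE 0.10), while Slc7a5, which carries large neutral amino acids, was lower at -0.59 (SE 0.08). Of 6 transcytosis genes 2 were lower, Cavin2 at -0.46 and the caveolin Cav2 at -0.39, and both lost their call with TPM.

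Of 20 endothelial identity genes 4 were higher (Cd34, Erg, Ets1 and Podxl) and 7 lower. Differences were positive for 13 of the 20, and their median was 0.12, against -0.03 over all genes. The 2 largest called differences were both falls. Ly6a, a surface antigen abundant on mouse endothelium, fell from 20.5 ± 5.20 to 8.18 ± 0.33 FPKM, a difference of -1.20. Ramp2, a subunit of the adrenomedullin receptor, fell from 7.26 ± 1.07 to 3.12 ± 0.48 FPKM, with means 2.33-fold lower. Vegfa, the growth factor that Flt1 binds, was the single gene called of 7 in its list. It rose from 8.08 ± 0.72 to 22.0 ± 0.78 FPKM, a difference of 1.34 (SE 0.08, adjusted p = 5.5e-05). Of 12 Wnt signalling genes 2 were higher and 2 lower, with Axin2, a Wnt target, at 0.68 and Tspan12, a partner of the norrin receptor, at -0.45. Tspan12 was not called with TPM or without Bet+HMD replicate 1. Of 9 nitric oxide pathway genes 3 were lower, among them Gucy1b1 at -0.44, not called with quantile normalization, and Ddah2 at -0.42. Ddah2 lost its call in 9 of 15 alternative fits, among them those without HMD replicate 1 or 3 and without Bet+HMD replicate 1 or 3. The single adhesion molecule tested, Vcam1, was at -0.21 and was not called.

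Pericytes lie on the same vessels and were listed together with smooth muscle. Of 12 markers tested in this list, 6 were called higher (22.8% of all genes) and 0 lower (25.5% of all genes). The 6 were Acta2, Anpep, Atp13a5, Cspg4, Myh11 and Pdgfrb, and the other markers tested were not called. Myh11, smooth muscle myosin, was higher by 0.93 (SE 0.10) and Pdgfrb, the receptor that holds pericytes to the vessel, by 0.81 (SE 0.12). The summed level of the list was 76.8 to 84.5 FPKM in HMD and 94.5 to 98.3 FPKM after betaine. Blood cell markers summed to 149 to 233 FPKM in HMD and to 72.2 to 122 FPKM after betaine, and thalamus markers to 52.6 to 117 and to 34.9 to 36.8 FPKM. Genes called lower numbered 2 of 8 for astrocytes, 3 of 7 for microglia, 3 of 6 for oligodendrocytes, 4 of 7 for neurons, 0 of 7 for choroid plexus, 1 of 5 for fibroblasts and meninges, 2 of 5 for blood, 2 of 7 for hippocampus and 3 of 6 for thalamus. Called higher were 1 neuron marker and 1 marker of fibroblasts and meninges. Over all genes, 25.5% were called lower and 22.8% higher. The part of these lists in the differences of the 10 genes was not tested.

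Bet+HMD was also compared with Con to ask where betaine left these genes relative to the standard diet. This comparison shares its betaine samples with the one against HMD, so the 2 are not independent. Cldn5 and Ocln were lower after betaine and no gene of the 10 was higher. Thus 2 of the 10 were called, against 39.7% of all 13643 genes tested, with 0 higher (19.4% of all genes) and 2 lower (20.4% of all genes). Groups were separate for 5 of the 10 (Cldn5, Ocln, Tjp1, Flt1 and Abcb1a), against 55.1% of all genes. The median difference was -0.11 over the 10 genes and -0.04 over all genes.

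In the later table Cldn5 was 19.7, 15.6 and 21.8 FPKM in Con, against the betaine samples at 9.18 to 10.02 FPKM given above. No sample came near the other group, and the difference was -0.89 (SE 0.13, adjusted p = 0.0023), with means 1.96-fold lower. It was called in all 16 alternative fits and was -0.56 after centring for length and GC content. Ocln was 4.95, 5.98 and 6.09 FPKM in Con, above all betaine samples. Its difference was -0.53 (SE 0.10, adjusted p = 0.0070), with means 1.57-fold lower, and it was called in all 15 alternative fits that tested it. Tjp1 was 17.9, 16.9 and 14.8 FPKM in Con, below all betaine samples, and its difference of 0.24 missed the threshold (adjusted p = 0.078). TPM scaling and the voom fit called 4 of the 10, adding Tjp1 and Flt1 on the higher side, and the higher share of all calls went from 48.8% to 73.5% and 59.7%. Tjp1 was also called higher with median-ratio centring (0.28, adjusted p = 0.044) and with quantile normalization (0.41, adjusted p = 0.015).

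Slc2a1 in Con was 32.7, 42.3 and 29.1 FPKM, and the lowest of these lay below the highest betaine sample. Its difference was -0.27 with a 95% interval from -0.60 to 0.06 (adjusted p = 0.165). Mfsd2a in Con was 12.9, 13.4 and 9.15 FPKM, and it overlapped as well, at -0.29 with an interval from -0.65 to 0.06 (adjusted p = 0.161). Leaving out Con replicate 3, the lowest Con sample for both genes, gave -0.39 for Slc2a1 (adjusted p = 0.038) and -0.45 for Mfsd2a (adjusted p = 0.0093), so that 4 of the 10 were called.

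The other genes showed smaller differences. Slco1a4 was at -0.11, Abcb1a at -0.12 and Pecam1 at -0.09, and all 3 turned positive with TPM scaling (0.106, 0.083 and 0.106). Flt1 was at 0.15, and it turned to -0.076 after centring for length and GC content. Nos3 was at 0.23 with an interval from -0.11 to 0.57. None of these 5 was called.

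Of the 84 other barrier genes tested against Con, 11 were higher and 14 lower. The 25 calls were 29.8% of those tested, where 39.7% of all genes were called, 19.4% higher and 20.4% lower. TPM scaling called 15 higher and 5 lower. Without Bet+HMD replicate 1, 2 or 3 the calls numbered 13, 12 and 15, and those over all genes fell from 5422 to 3424, 3347 and 3302. Junction genes gave 2 higher and 1 lower of 13, with Ctnnb1 at -0.62 (not called with quantile normalization) and Afdn, a scaffold of adherens junctions, at 0.46. Transporters gave 4 higher and 2 lower of 16, with Slc22a8 at 0.70 and the glutamine carrier Slc38a5 at -0.62. Slc38a5 lost its call in 6 of 14 alternative fits, among them those without any one betaine sample. Endothelial identity genes gave 1 higher and 4 lower of 20, with Ly6a at -1.09 and Ramp2 at -0.90. Differences were positive for 11 of these 20, with a median of 0.007, against -0.04 over all genes. Among 7 VEGF and angiopoietin genes, Vegfa was higher by 1.44 (22.0 ± 0.78 against 7.54 ± 1.41 FPKM) and 2 were lower, among them Nrp1 at -0.41, which was not called in 4 of 16 alternative fits: TPM, the replicate block, and without Bet+HMD replicate 1 or 2.

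Of 12 Wnt signalling genes 2 were higher and 2 lower, with Wnt7a, a ligand from neural cells that acts on brain endothelium, at -0.66 and its coreceptor Reck at 0.63. Of 9 nitric oxide pathway genes 1 was higher (Gucy1a1 at 0.53) and 2 were lower, among them Ddah2 at -0.88, which lost its call in 8 of 15 alternative fits, including those without Con replicate 2 or 3 or any one betaine sample. Vcam1 was lower at -0.35 (adjusted p = 0.036), but it lost its call in 11 of 15 alternative fits, including those without Con replicate 2 or 3 or any one betaine sample (adjusted p up to 0.240). None of 6 transcytosis genes was called, Cav2 being at -0.39. The list of pericyte and smooth muscle markers had 7 of 12 higher and 0 lower, with Myh11 at 0.88 and Atp13a5 at 0.69. Other lists had 3 of 8 astrocyte, 3 of 7 microglia, 2 of 6 oligodendrocyte, 2 of 7 neuron, 0 of 7 choroid plexus, 1 of 5 fibroblast, 1 of 5 blood, 2 of 7 hippocampus and 0 of 5 thalamus markers lower. Higher were 1 marker each of fibroblasts, blood, hippocampus and thalamus. Over all genes, 20.4% were called lower and 19.4% higher. Gene length moved with this comparison too, with medians of -0.18, -0.14, -0.03 and 0.10 from the shortest to the longest of 4 bins.

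**Figure D4:**
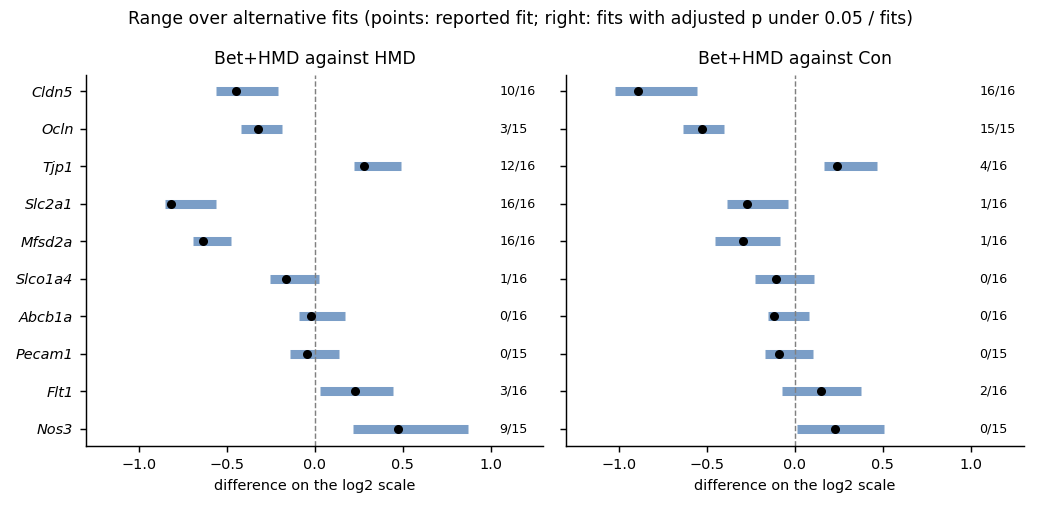
Differences of the 10 genes for Bet+HMD against HMD (left) and against Con (right) on the log2 scale. Points are the reported fits, blue bars span the alternative fits, and the figures at the right of each panel count the alternatives with an adjusted p under 0.05: 16 of 16 for Slc2a1 and Mfsd2a on the left and 16 of 16 for Cldn5 on the right.

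Within groups, the 10 genes did not move as one. Across the 9 samples of the later table, the deviation of each gene from its group mean was correlated with the mean deviation of all 10 genes. Pearson's r was highest for Mfsd2a (0.78), followed by Slc2a1 (0.55), Flt1 (0.50) and Tjp1 (0.50), and it was lowest for Pecam1 (-0.36) and Cldn5 (-0.22). Each gene is part of that mean, and all values share the library and its scaling. Of 13464 genes with a mean of at least 1 FPKM, those outside the set with the highest r were Lcat (0.97), Fh1 (0.96), Pnrc1 (0.95), Mxi1 (0.95) and Ntsr1 (0.94). With 9 samples in 3 groups such values describe these libraries only.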

How the data were processed

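Hippocampal RNA was measured in 9 samples, grouped by their titles. The authors deposited FPKM in 2 tables, together with gene length in bases (another unit). The submitters' processing notes name HISAT2 2.1.0, featureCounts 1.5.0-p3 and mm10. Whether counting used strand is not stated. Columns with the prefix COL were read as Con, an inferred match. Positions in the tables were those of GENCODE M21 on GRCm38 for 98.3% of matched genes.

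The values are not counts, so limma 3.58.1 in R 4.3.3 was fitted with an intensity trend to log2(FPKM + 1) of the 2 groups compared, within one table, for genes with a mean of at least 1 FPKM. This pseudocount understates changes of low genes. FPKM was multiplied by gene length and divided by the value of a single read, estimated within each library. This gave whole reads for 100% of the values checked. The tolerance was 0.01 reads, wider at high counts, and any values at the very top were not checked. These reads were used by limma voom as an alternative. Depth and the number of samples limit the precision. p-values were two-sided. The scripts were tested on simulated data.

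The 10 genes and all lists were chosen with earlier results of these data known. Named list genes were the 2 called genes with the largest absolute difference per list and comparison, or the gene with the lowest p where none was called. Of the cell type lists, only genes of the pericyte and smooth muscle list are named. Replicate numbers were not taken to pair samples, since same-numbered samples did not deviate together in every pair. Alternatives were a pseudocount of 0.1, no filter, a filter at 5 FPKM, TPM, median-ratio centring, quantile normalization, voom, a replicate block, all 3 groups in one fit, the later table for HMD against Con, leaving out each sample, and, chosen after seeing the data, centring on length and GC content in 20 bins.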

Additional observations from a re-analysis of the deposited data

How the results depend on the processing

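Of the 168 alternative values of the 10 genes in HMD against Con, 161 kept their direction and side of the threshold and 7 changed sign, none of them called. Pecam1 became 0.00149 with TPM. Leaving out 1 sample gave -0.0670 to 0.0264 for Pecam1, -0.0661 to 0.154 for Slco1a4 and -0.120 to 0.0171 for Tjp1, with changed signs for Pecam1 and Slco1a4 without Con replicate 3 or HMD replicate 2 and for Tjp1 without Con replicate 1 or HMD replicate 3. Counts of the 10 genes and of the listed genes stayed at 0 in all alternatives, while all genes gave 9 with the 3 groups in one fit and 2 without Con replicate 2. In Bet+HMD against HMD, 116 of 157 values kept direction and side, 28 lost their call, 4 gained one and 9 changed sign. The signs that changed were those of Pecam1 (0.135 with TPM, 0.0351 with voom), Slco1a4 (0.0248 with TPM) and Abcb1a (0.172 with TPM, 0.0173 with median-ratio centring, 0.0683 with voom, 0.0204 with length and GC centring, and -0.0887 to 0.0542 without 1 sample, positive without HMD replicate 1 or Bet+HMD replicate 3). The cause was not tested. Leaving out 1 sample gave 2 to 6 of the 10 genes and 26 to 40 of the listed genes called, and the filter at 5 FPKM gave 20 listed genes, from fewer genes tested, and 4166 of all genes against 6607. In Bet+HMD against Con, 144 of 157 values kept direction and side, 8 gained a call and 5 changed sign, namely Pecam1, Slco1a4 and Abcb1a with TPM (0.106, 0.106 and 0.0825), Slco1a4 with quantile normalization (0.00757) and Flt1 with length and GC centring (-0.0758). The 10 genes gave 1 call with the filter at 5 FPKM, under which Ocln was not tested. They gave 3 with median-ratio centring or quantile normalization and 4 with TPM or voom. Leaving out 1 sample gave 2 to 4 of the 10 genes, 12 to 32 listed genes and 3302 to 6269 of all genes, against 5422. The filter at 5 FPKM gave 3260.

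With the replicate block, 0, 4 and 2 of the 10 genes were called in the 3 comparisons, and 16 in place of 25 listed genes against Con. The numbers were not taken to pair the samples. Same-numbered samples of Con and HMD correlated at -0.06, 0.35 and 0.32 in their deviations. Their mean was 0.20, against -0.10 for differently numbered samples, and 3 such values cannot settle whether Con and HMD were paired. Same-numbered samples of HMD and Bet+HMD correlated at -0.08 on average, and those of Con and Bet+HMD at -0.11 on average. Of the named genes of the other lists, none changed sign, but calls were lost in 16 of 250 alternative fits against HMD (Cav2, Cavin2, Ddah2, Gucy1b1 and Tspan12) and in 30 of 247 against Con (Ctnnb1, Ddah2, Nrp1, Slc38a5 and Vcam1).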
